A study of Mus musculus with 2 samples.

Results

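The 6 genes of the type IV collagen chains, Col4a1 to Col4a6, were followed across cell classes of the mouse lung in 2 single-cell libraries, 1 taken before birth at embryonic day E18.5 and 1 on postnatal day 10 (P10). The chains were chosen by gene symbol, and all 6 of 6 were found among the 32285 genes of both count matrices. In these mice Cdh16, which encodes a cadherin best known from the kidney, drove a Cre recombinase that tamoxifen activates, and the Cre turned on the red reporter tdTomato, which marks cells that used Cdh16 at or after tamoxifen. The sample labels give the genotype as Cdh16CreERT2;tdTomatoflox/flox and the design text as Cdh16CreERT2/wt;R26-tdTomatoflox/wt. Pregnant females received tamoxifen from E12.5 on, in both libraries, either injected at 0.1 mg per kg of body weight or fed at 0.4 g per kg of food. The sources used here do not say which of these routes applied to which library. Red cells stained for CD326, the protein encoded by Epcam, were sorted. Both libraries carry batch number 1, the sources used here do not give the number of mice pooled, and E16.5 samples were not analysed here. There was no library without the recombinase, and with 1 library per time point no difference between the time points has a replicate check.

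Type IV collagen is the sheet-forming collagen of basement membranes. Its chains assemble inside the cell into triple helices of fixed composition: a helix of Col4a1 and Col4a2 chains, which almost every basement membrane holds, a helix of Col4a3, Col4a4 and Col4a5 chains, known from the kidney filter, the inner ear and the alveolus, and a helix of Col4a5 and Col4a6 chains, known from the skin and from smooth muscle. In the alveolus the basement membranes of the flat gas-exchange cells (alveolar type 1, AT1) and of the capillary endothelium are fused over much of the surface. Inherited loss of the Col4a3, Col4a4 or Col4a5 chain causes Alport syndrome, and changes in Col4a1 or Col4a2 cause disease of small blood vessels.

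The genes lie in head-to-head pairs, each pair read outwards from a shared stretch of DNA (GENCODE vM21 on GRCm38). Col4a1 (chromosome 8, 11198423 to 11312826, minus strand) and Col4a2 (chromosome 8, 11312805 to 11449287, plus strand) overlap at their starts by 22 bases. Between the starts of Col4a4 (chromosome 1, 82448423 to 82586849, minus strand) and Col4a3 (chromosome 1, 82586921 to 82722059, plus strand) there are 71 bases. Col4a6 (chromosome X, 141165403 to 141474076, minus strand) and Col4a5 (chromosome X, 141475385 to 141689234, plus strand) start 1308 bases apart. The genes are long, from 114 kb for Col4a1 to 309 kb for Col4a6 from first to last base, with 45 to 54 exons in their longest transcripts. RefSeq (GRCm38.p6) gave a promoter window, 250 bases before to 50 bases after the start, for 5 of the 6. The windows of Col4a2, Col4a4 and Col4a6 are shown because each lies at the start region of 1 pair. Within the first and within the second pair, the levels of both members rose and fell together over the classes. Capitals mark the GC box GGGCGG and the CCAAT box on either strand in the windows of Col4a2 and Col4a6, and in that of Col4a4 the stretch between its start and that of Col4a3. The windows are chr8:11312555-11312854 (plus strand), chr1:82586800-82587099 (minus strand) and chrX:141474027-141474326 (minus strand).
Col4a2: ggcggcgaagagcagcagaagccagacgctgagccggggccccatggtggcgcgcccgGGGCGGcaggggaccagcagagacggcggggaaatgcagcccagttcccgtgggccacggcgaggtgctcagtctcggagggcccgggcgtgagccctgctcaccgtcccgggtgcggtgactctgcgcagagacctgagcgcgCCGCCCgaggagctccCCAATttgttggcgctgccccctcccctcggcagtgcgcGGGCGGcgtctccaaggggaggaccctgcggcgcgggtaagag
Col4a4: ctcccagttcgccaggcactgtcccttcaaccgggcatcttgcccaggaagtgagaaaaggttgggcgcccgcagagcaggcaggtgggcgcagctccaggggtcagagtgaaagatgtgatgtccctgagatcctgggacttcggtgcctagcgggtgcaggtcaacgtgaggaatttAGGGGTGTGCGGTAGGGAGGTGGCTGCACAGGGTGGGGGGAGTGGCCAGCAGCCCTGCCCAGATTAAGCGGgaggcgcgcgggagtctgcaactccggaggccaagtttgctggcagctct
Col4a6: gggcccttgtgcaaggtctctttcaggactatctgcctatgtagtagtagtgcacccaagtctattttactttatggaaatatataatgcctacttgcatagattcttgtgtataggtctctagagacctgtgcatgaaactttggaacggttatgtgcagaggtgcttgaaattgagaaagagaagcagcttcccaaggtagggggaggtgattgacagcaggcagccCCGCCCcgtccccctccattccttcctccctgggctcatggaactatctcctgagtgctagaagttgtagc

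The Col4a2 window held 3 GC boxes and 1 CCAAT box, and those of Col4a1 and Col4a5 held 1 of each. The windows of Col4a1 and Col4a2 overlap, and the GC box of Col4a1 is the same site as 1 of the 3 of Col4a2. Col4a6 had 1 GC box and no CCAAT box, and the Col4a4 window had neither. None of the 5 windows held TATAAA. Of 32851 RefSeq windows of 300 bases, 35.7% held the GC box, 37.4% the CCAAT box and 13.6% TATAAA on either strand. The G and C content was 74% for Col4a1 and 73.7% for Col4a2, 63.3% for Col4a4, 52.7% for Col4a5 and 48.3% for Col4a6. These are letter matches and describe the windows alone.

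The libraries kept 12027 of 12739 barcodes at E18.5 (median 8959 unique molecular identifiers, UMIs, per cell) and 14086 of 14503 at P10 (median 10250.5), and 59 barcode sequences occurred in both. Cells were clustered in each library without the 6 chains, and clusters were named from marker genes. At E18.5 there were 3155 AT1-like cells, 2424 AT2-like cells (alveolar type 2, the surfactant-making cells) and 2058 cells with markers of both. At P10 there were 9105 AT2-like and 1893 transitional-like cells, and 67 AT1-like cells. The label calls the cells alveolar epithelial, yet each library also held endothelial-like cells (326 and 425), mesenchymal-like cells (710 and 449, fibroblast-like together with pericyte or smooth muscle-like), mesothelial-like cells (57 and 33) and leukocyte-like cells, in spite of the CD326 stain. Endothelial-like cells carried 190 CPM (UMIs per 1e6 UMIs of the class sum) of Epcam at E18.5 against 379 in AT1-like cells. The doublet caller marked only 2 and 1 cells, so doublets were not removed, and their share was not measured.

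RNA of alveolar cells was present in every class. All 11 AT1 markers and all 12 AT2 markers were above 0 in endothelial-like, mesenchymal-like and leukocyte-like sums of both libraries. Summed AT1 markers came to 7140 CPM in endothelial-like cells at E18.5 and 1768 at P10, against 23515 and 10655 in AT1-like cells. Leukocyte-like cells, which are not a main source of basement membrane, were therefore used as a background. They were sorted by the share of their UMIs in alveolar markers and split into 4 bins of equal size, and the lowest bin (385 cells at E18.5 and 455 at P10) gave the background level. There Col4a1 stood at 88.0 CPM (95% Poisson interval 77.4 to 99.7) at E18.5 and 49 (41.7 to 57.1) at P10, and Col4a3 at 46.3 (38.7 to 55.0) and 20.7 (16.1 to 26.2). The background was thus lower at P10, and multiples of it are not comparable between the libraries. In the third bin of the E18.5 leukocyte-like cells Col4a1 stood at 648 CPM, between 451 in the second and 457 in the highest bin. Another set, the leukocyte-like clusters with little alveolar RNA, was picked by whole clusters with low AT1 and AT2 marker levels (437 and 863 cells). It is not the background. Its Col4a3 stood at 163 CPM at E18.5 and 46.6 at P10, 3.51 and 2.25 times the background. Whole leukocyte-like classes stood above the background too. In all myeloid-like cells Col4a3 was 5.67 times the background at E18.5 and 4.91 times at P10. A multiple of the background alone thus does not show that a class made a chain. All intervals in this text are at 95% and cover counting error only. Reads come from the 3' end, so levels were not scaled by gene length, and a ratio between 2 chains is read only against the same ratio in another class.

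AT1-like cells of E18.5 held all 6 chains above the background. There Col4a1 stood at 816 CPM (804 to 828) and Col4a2, its partner, at 534 (524 to 544). Col4a3 was at 532 CPM (522 to 542), Col4a4 at 766 (754 to 778) and Col4a5, the third chain of that helix, at 265 (258 to 272). Col4a6, the partner of Col4a5 in the third helix, stood at 20.2 CPM (18.3 to 22.2). Against the leukocyte background the 6 levels were 9.27 to 12.9 times as high. The 3 AT1-like clusters of E18.5 differed most in Col4a3, from 465 to 730 CPM, and Col4a4, from 676 to 1026 CPM, and the cluster with the highest AT1 marker level had the highest value of all 6 chains.

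The small AT1-like class of P10 held Col4a1 to Col4a5 above the background. Col4a3 was at 885 CPM (825 to 949) and Col4a4 at 1020 (955 to 1088), 42.8 and 44.7 times the background. Col4a1 stood at 689 CPM (636 to 745), Col4a2 at 551 (504 to 602) and Col4a5 at 227 (197 to 261). Only 4 UMIs of Col4a6 were counted (4.44 CPM, 1.21 to 11.4). These 67 cells carried much AT2 RNA, 129811 CPM of summed AT2 markers against 10288 in AT1-like cells of E18.5. The 17 cells with the smallest AT2 marker share had 2167 CPM of Col4a3 and 3100 of Col4a4, and the 16 with the largest had 481 and 537. Those 17 cells were shallow (median 3854 UMIs).

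**Figure D1:**
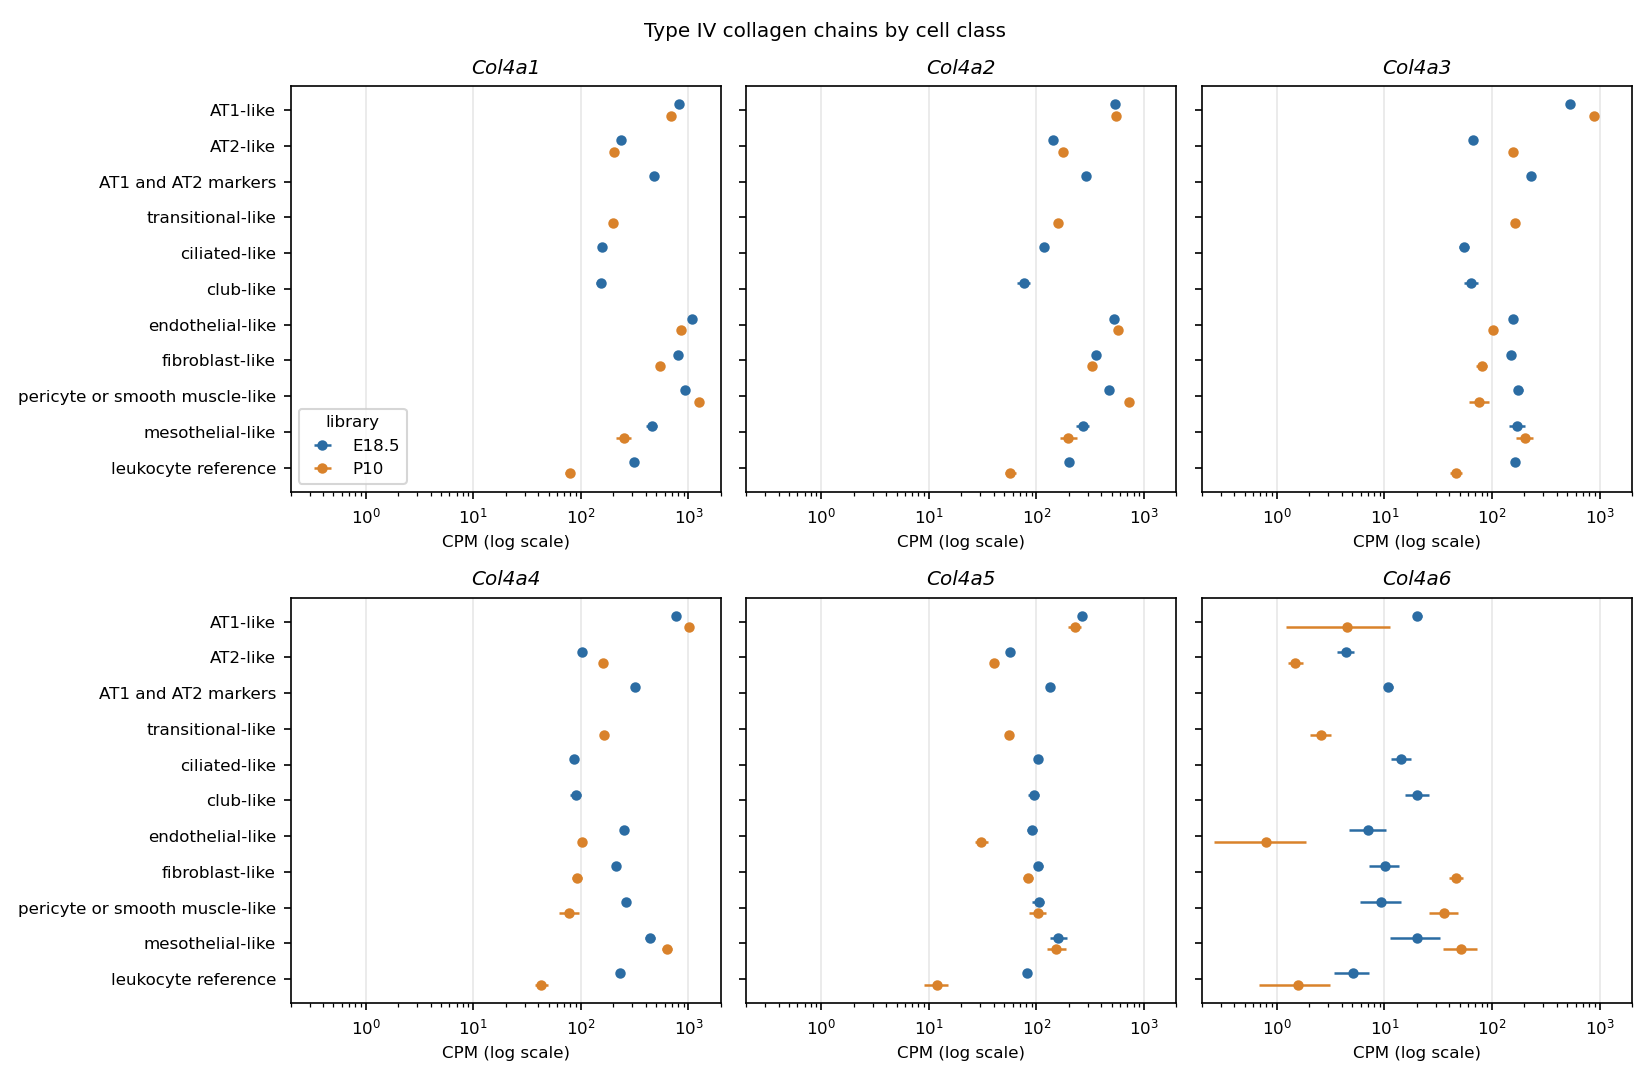
Level of each chain (CPM, log axis) in the cell classes of the E18.5 library (blue) and the P10 library (orange). Points are class sums and bars the 95% Poisson intervals, which cover counting error only. A class without a point was not named in that library. The leukocyte row holds the leukocyte-like clusters with little alveolar marker RNA, not the lowest bin used as background. Col4a3 and Col4a4 are highest in AT1-like cells, Col4a1 in endothelial-like cells (E18.5) and pericyte or smooth muscle-like cells (P10), and Col4a6 in mesothelial-like and fibroblast-like cells at P10.

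AT2-like cells had lower levels of every measured chain than AT1-like cells of the same library. A chain counted as measured where at least 1 of both sums reached 10 CPM, and as different where the sums differed by 2 times or more. At E18.5, 6 of 6 chains were at least 2 times higher in AT1-like cells, where 13.8% of all measured genes were (8.95% were lower). The ratio was 7.94 (7.55 to 8.34) for Col4a3 and 7.55 (7.25 to 7.87) for Col4a4, and 3.43 (3.33 to 3.53) for Col4a1. At P10, 5 of 5 measured chains were higher in AT1-like cells, where 7.59% of all genes were (1.4% were lower). There Col4a3 was 5.64 times higher (5.25 to 6.06), Col4a4 6.38 times (5.97 to 6.82) and Col4a5 5.61 times (4.85 to 6.45). The median log2 ratio of the measured chains was 2.22 at E18.5 and 2.49 at P10, against 0.32 and 0.10 over all genes.

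At E18.5 AT2-like cells stood little above the background in Col4a3 and Col4a4. Col4a1 stood at 238 CPM (232 to 244), Col4a3 at 67.0 (64.0 to 70.2) and Col4a4 at 101 (97.7 to 105), which were 2.70, 1.45 and 1.71 times the leukocyte background. Sorted into 4 bins by the share of AT1 marker UMIs, the 606 AT2-like cells with the least had 22.5 CPM of Col4a3 (18.7 to 26.9), under the background, and the 606 with the most had 131 (124 to 139). Col4a1 in the same 2 bins stood at 163 (153 to 175), 1.86 times the background, and at 346 (334 to 357). The part of AT1 RNA in the Col4a3 level of the whole class was not tested further.

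AT2-like cells of P10 held Col4a3 and Col4a4 well above the background. Col4a3 was at 157 CPM (155 to 159), 7.59 times the background (5.99 to 9.78), and Col4a4 at 160 (157 to 162), 7 times (5.58 to 8.91). Col4a1 stood at 202 CPM (199 to 205), Col4a2 at 176 (173 to 178) and Col4a5 at 40.5 (39.3 to 41.8). The whole myeloid-like, neutrophil-like and lymphoid-like classes of P10 had Col4a3 at 4.91, 4.07 and 3.9 times the background. Their Col4a4 was at 4.33, 3.05 and 3.73 times. Between the AT2-like bins with the least and the most AT1 marker RNA, Col4a3 went from 129 to 188 CPM, a smaller span than at E18.5. The bins also spanned less AT1 marker RNA at P10. Their median shares went from 0.0919% to 0.245%, and at E18.5 from 0.145% to 0.618%. After each cell was thinned to 3000 UMIs, 33.8% of P10 AT2-like cells had a Col4a3 UMI (66.6% before thinning) and 8.59% of the leukocyte-like cells with little alveolar RNA (15.6% before). At E18.5 the thinned shares were 13.5% in AT2-like and 28.6% in those leukocyte-like cells. Median depths of the leukocyte-like cells were 11135 UMIs at E18.5 and 4090 at P10.

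Col4a3 was the only measured chain at least 2 times higher in AT2-like cells of P10 than of E18.5. Its ratio was 2.34 (2.23 to 2.46), and that of Col4a4 1.57 (1.51 to 1.64). Of all measured genes 15.3% were at least 2 times higher, so 1 of 5 chains is close to that share. Between the bins with the least AT1 marker RNA, the P10 level was 5.74 times the E18.5 level for Col4a3 (4.79 to 6.94) and 2.94 times for Col4a4 (2.58 to 3.37). For Col4a2 it was 1.90 times (1.73 to 2.10), and for Col4a1 1.15 times (1.07 to 1.23). The whole-class ratio of Col4a3 depended on a cluster of 730 cells with AT1 and AT2 markers at E18.5: when it was counted as AT2-like, the log2 ratio went from 1.23 to 0.24. Against genes of the same length the chain was no longer 2 times higher. Col4a4 turned to -0.19 and -0.049 under these settings.

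**Figure D2:**
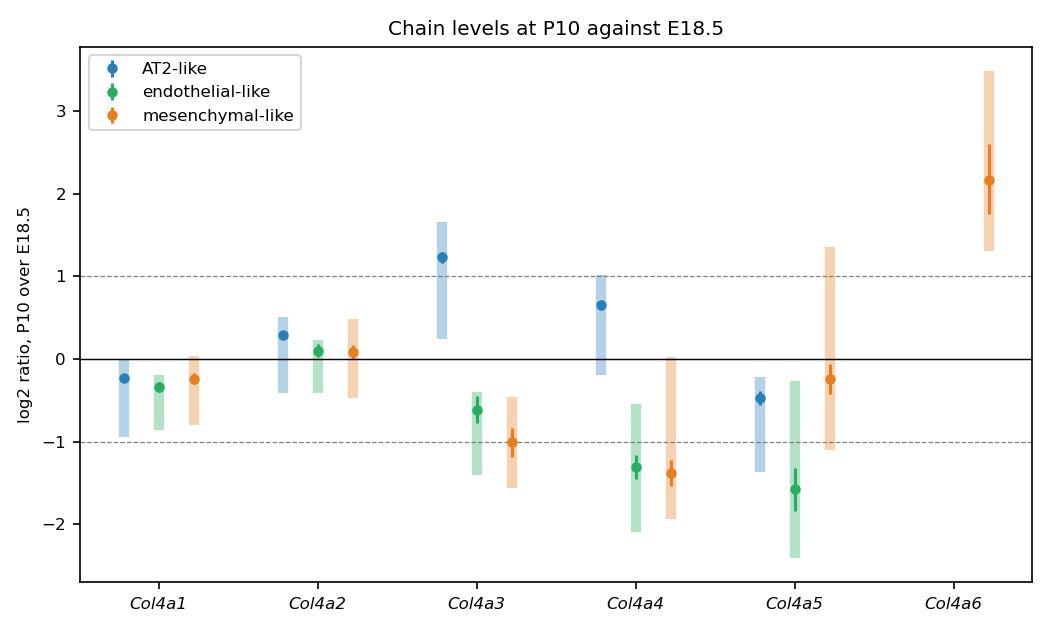
Log2 ratio of chain levels at P10 over E18.5 in AT2-like (blue), endothelial-like (green) and mesenchymal-like (orange) cells. Points are the ratios of class sums with 95% intervals of counting error, pale bars span the values under the alternative settings, and dashed lines mark 2-fold changes. Col4a6 is drawn only in mesenchymal-like cells, since it was under 10 CPM in both libraries in the others. Col4a3 was at 1.23 in AT2-like cells and -1.01 in mesenchymal-like cells, and the pale bars of Col4a3 and Col4a4 are wide.

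The transitional-like class of P10 (1893 cells), an epithelial class with markers of the state between AT2 and AT1 cells, had chain levels near those of AT2-like cells. Col4a1 was at 198 CPM (193 to 204), Col4a3 at 164 (160 to 169) and Col4a4 at 163 (158 to 168). Col4a5 stood at 55.4 CPM (52.7 to 58.2), above the AT2-like 40.5. The cells with both AT1 and AT2 markers at E18.5 lay between the AT1-like and AT2-like levels in all 6 chains, with 231 CPM of Col4a3 and 321 of Col4a4. An unnamed E18.5 cluster of 604 shallow cells (median 1960.5 UMIs) with AT1 markers had 793 CPM of Col4a3 (750 to 838) and 966 of Col4a4 (918 to 1015), and Col4a3 was among its 10 leading genes. Airway epithelium showed another order. Ciliated-like cells of E18.5 had 103 CPM of Col4a5 (95.5 to 111) and club-like cells 93.9 (83.1 to 106), 4.6 and 4.18 times the background, while their Col4a3 was 1.18 (0.959 to 1.45) and 1.38 (1.09 to 1.74) times the background. The whole myeloid-like class of E18.5 had Col4a5 at 6.1 times and Col4a3 at 5.67 times the background. Against the leukocyte-like clusters with little alveolar RNA as a whole, Col4a5 was 1.26 times higher in ciliated-like (1.12 to 1.41) and 1.14 times in club-like cells (0.981 to 1.33). Col4a6 in club-like cells stood at 20.2 CPM (15.4 to 26.1), 4 times the level in those clusters (2.54 to 6.43). The unnamed P10 cluster with club and ciliated markers (142 cells) likewise had 92.0 CPM of Col4a5 and 29.0 of Col4a6, 12.6 and 31.8 times the background. Col4a5 UMIs were 1.2 times those of Col4a4 in ciliated-like cells and 0.346 times in AT1-like cells of the same library.

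**Figure D3:**
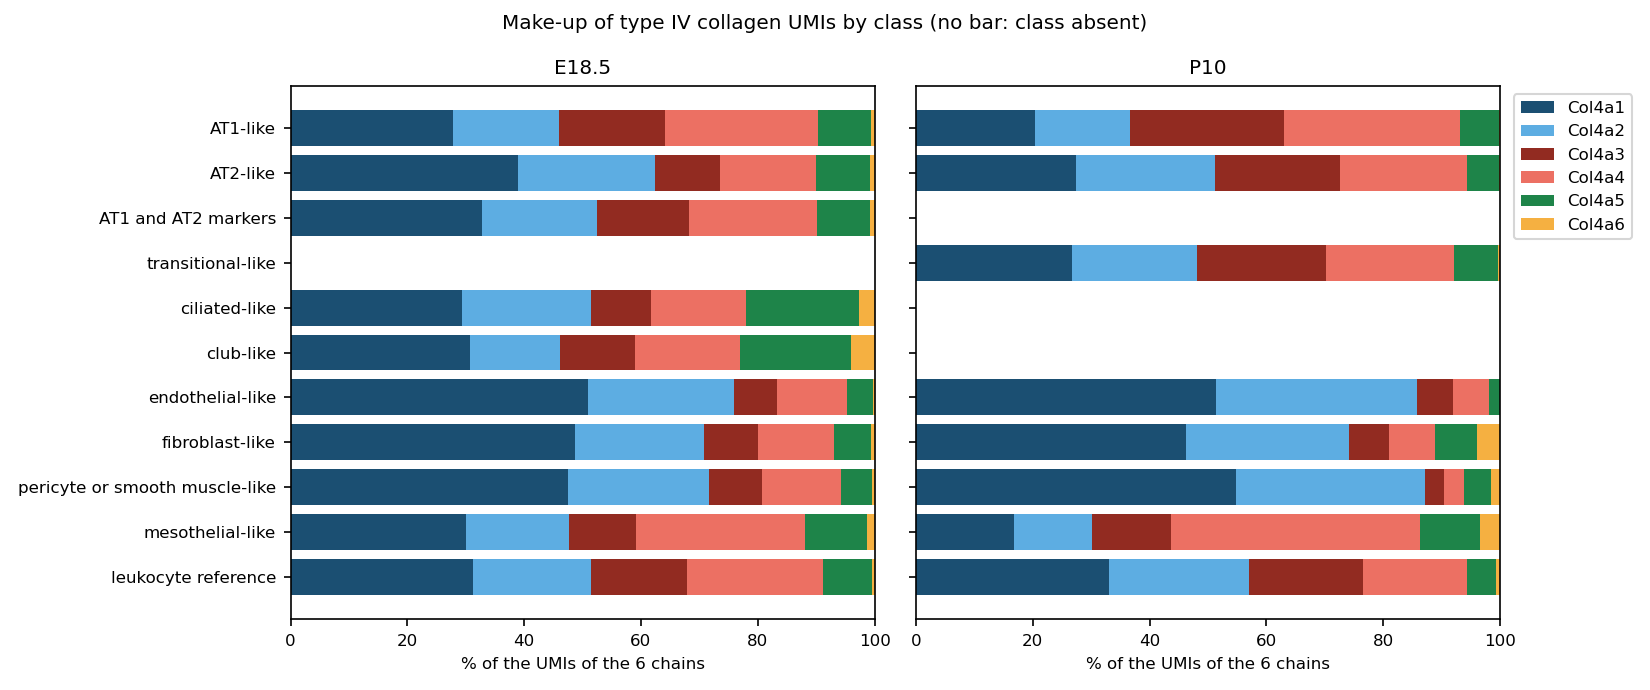
Share of the UMIs of the 6 chains that fell to each chain, by class, at E18.5 (left) and P10 (right). Each bar sums to 100%, and a class with no bar was not named in that library. Col4a1 made up 50.9% of the chain UMIs of endothelial-like cells at E18.5 and 51.3% at P10. In AT1-like cells of P10 Col4a4 made up 30.2% and Col4a3 26.2%.

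Endothelial-like cells expressed the Col4a1 and Col4a2 pair. Col4a1 was at 1073 CPM (1040 to 1106) at E18.5, the highest of the named classes there, and at 847 (825 to 870) at P10. Col4a2 stood at 529 (506 to 553) and 568 (549 to 586). Against AT2-like cells of the same library, Col4a1 was 4.51 times higher at E18.5 (4.34 to 4.69) and 4.2 times at P10 (4.07 to 4.33). At E18.5, 4 of 5 measured chains were at least 2 times higher than in AT2-like cells, where 21% of all genes were, and at P10 2 of 5, where 22% were. None was at least 2 times lower, against 4.73% of genes at E18.5 and 4.45% at P10. A lymphatic-type cluster of 17 P10 cells, led by Ccl21a, Reln and Mmrn1, had 403 CPM of Col4a1 and 155 of Col4a2.

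The Col4a3 and Col4a4 levels of endothelial-like cells were lowest in the cells with the least alveolar marker RNA. Over the whole class at E18.5 Col4a3 was at 156 CPM (144 to 169) and Col4a4 at 253 (237 to 269), 2.33 and 2.49 times the AT2-like levels. In the 82 cells with the smallest alveolar marker share, however, Col4a3 stood at 26.2 CPM (15 to 42.6) and Col4a4 at 34.4 (21.3 to 52.6), under the leukocyte background by ratios of 0.566 (0.314 to 0.955) and 0.578 (0.349 to 0.913). In the third bin (median alveolar share 1.84%) they were at 272 and 460 CPM, and in the highest (8.95%) at 173 and 281. At P10 Col4a3 went from 28.8 CPM in the lowest bin to 163 in the highest and Col4a4 from 31.4 to 158, with lowest-bin ratios to the background of 1.39 (0.934 to 2.06) and 1.38 (0.939 to 2.00). Col4a1 ran the other way, from 1294 to 791 CPM at E18.5 and from 1121 to 556 at P10, and its lowest-bin level was 14.7 and 22.9 times the background. The bins differed in depth too. Median UMIs were 4330 in the lowest and 22267 in the highest bin at E18.5, and 11691 and 22243.5 at P10. The part of depth in these levels was not tested. Col4a4 and Col4a5 were at least 2 times lower at P10 over the whole class, 2.48 times (2.24 to 2.75) and 2.98 times (2.49 to 3.57), where 8.16% of genes were. Between the lowest bins the ratios of P10 to E18.5 were 0.912 (0.537 to 1.60) and 1.26 (0.580 to 3.02), so that both intervals held 1 there.

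**Figure D4:**
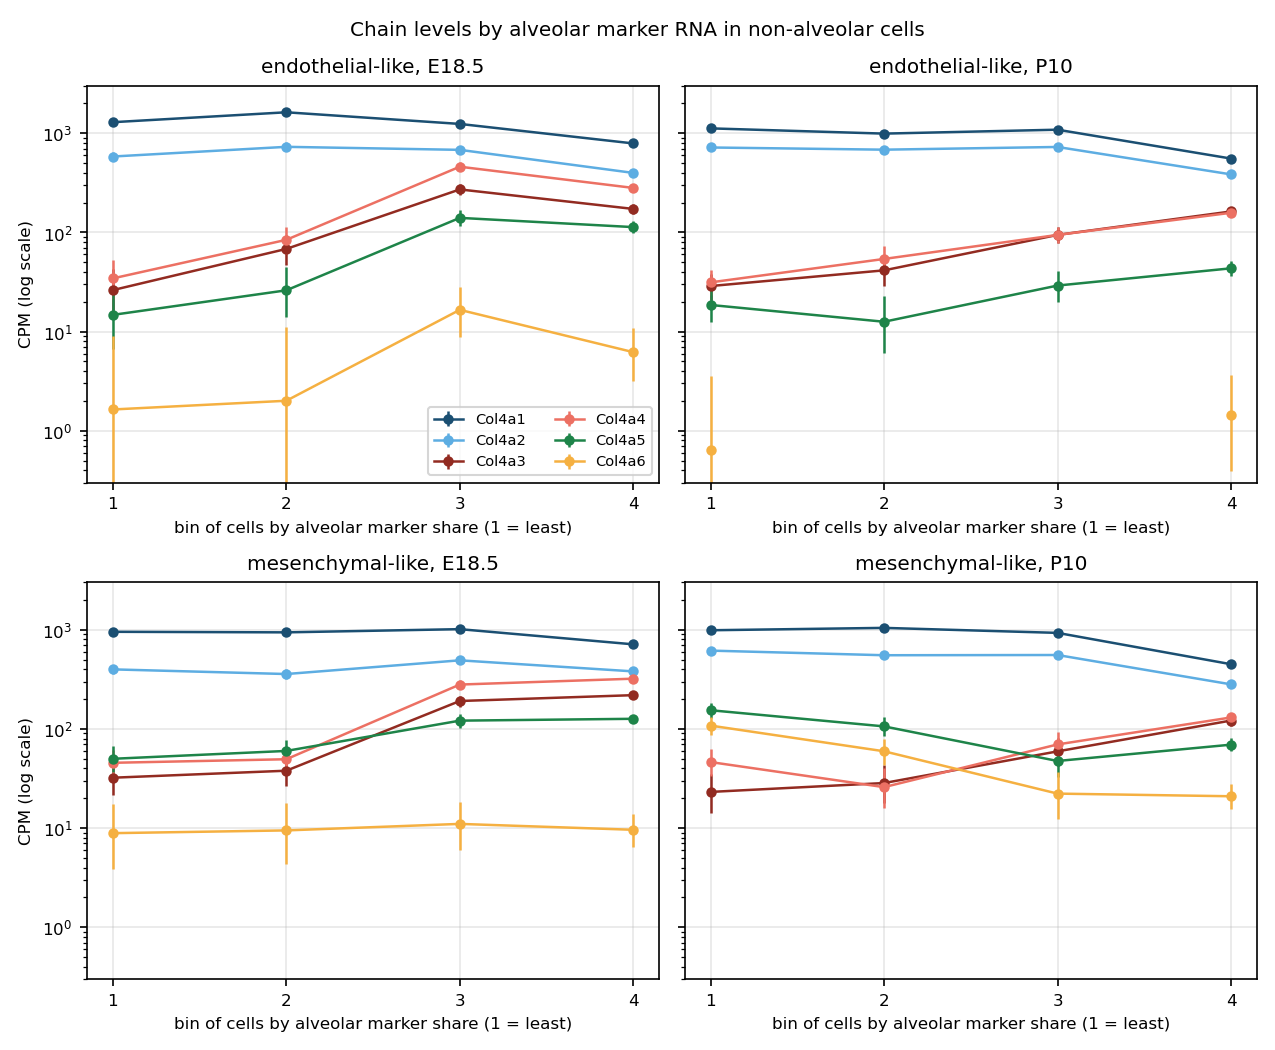
Chain levels (CPM, log axis) in endothelial-like (top) and mesenchymal-like (bottom) cells of E18.5 (left) and P10 (right), split into 4 bins of equal size by the share of UMIs in AT1 and AT2 markers. Bars are 95% Poisson intervals, and a level of 0 has no point. The bins also differ in UMIs per cell. Col4a3 and Col4a4 go from 26.2 and 34.4 CPM in the lowest to 272 and 460 in the third and 173 and 281 in the highest bin of endothelial-like cells at E18.5, while Col4a1 stays between 791 and 1629, and Col4a6 is highest in the lowest bin of mesenchymal-like cells at P10 (108 CPM).

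Mesenchymal-like cells also expressed the Col4a1 and Col4a2 pair, and at P10 Col4a5 and Col4a6 as well. At E18.5 Col4a6 stood under 10 CPM, and Col4a5 was 1.85 times the AT2-like level (1.69 to 2.03). Col4a1 was at 845 CPM (822 to 868) at E18.5 and 716 (692 to 740) at P10, and Col4a2 at 403 (387 to 419) and 428 (409 to 447). At E18.5, 4 of 5 measured chains were at least 2 times higher than in AT2-like cells, where 20.9% of genes were. None was 2 times lower, against 5.4% of genes at E18.5 and 4.55% at P10. At P10 the count was 4 of 6, where 21.4% were higher, and the 4 were Col4a1, Col4a2, Col4a5 and Col4a6. Pericyte or smooth muscle-like cells, which wrap vessels and airways, had 928 CPM of Col4a1 at E18.5 and 1242 at P10, the highest of the P10 classes, and fibroblast-like cells 795 and 544.

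Col4a6 was the chain that differed most between the libraries in mesenchymal-like cells. It went from 9.78 CPM (7.48 to 12.6) at E18.5 to 43.9 (38.1 to 50.2) at P10, 4.49 times (3.36 to 6.07), where 15.3% of genes were at least 2 times higher. Fibroblast-like cells went from 10 to 46.5 CPM and pericyte or smooth muscle-like cells from 9.38 to 35.7, where 15.6% and 17.1% of genes were at least 2 times higher. Of the 2 fibroblast-like clusters of P10, the one led by Aspn and holding Hhip had 65.4 CPM and the one led by Mfap4 and Col1a1 27.7. In mesenchymal-like cells with the least alveolar marker RNA, Col4a6 stood at 8.89 CPM (3.84 to 17.5) at E18.5 and 108 (87.8 to 132) at P10, a ratio of 12.2 (5.93 to 29.0). The part of the mixture of clusters in these bins was not tested. Col4a5 in the same cells stood at 50.01 (36.5 to 66.9) and 154 (130 to 182), a ratio of 3.09 (2.19 to 4.42), although over the whole class it went from 104 to 88.4 CPM, a ratio of 0.847 (0.748 to 0.959). Against the background the lowest-bin levels at E18.5 were already 2.23 times higher for Col4a5 (1.49 to 3.32) and 4.99 times for Col4a6 (1.44 to 19.4). The Col4a6 ratio rests on 8 UMIs against 5 in the background. After thinning, 9.76% of P10 mesenchymal-like cells had a Col4a6 UMI. The share was 0.449% in AT2-like cells and 0.324% in the leukocyte-like clusters with little alveolar RNA. Mesenchymal-like cells of P10 with a Col4a6 UMI more often had a Col4a5 UMI: 48.8% of 41 thinned cells against 16.6% of 379 without. At E18.5 these shares were alike in mesenchymal-like cells, 18.8% of 16 against 17.8% of 589.

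Col4a3 and Col4a4 in mesenchymal-like cells followed the endothelial pattern. They were at 159 and 232 CPM at E18.5 and at 79.2 and 89.2 at P10, lower by 2.01 times (1.78 to 2.27) and 2.60 times (2.33 to 2.90), where 8.9% of genes were at least 2 times lower. Of the 6 chains fibroblast-like cells had Col4a4 lower by 2.29 times (2.01 to 2.6) beside 9.6% of genes, and pericyte or smooth muscle-like cells Col4a3 by 2.33 times (1.85 to 2.96) and Col4a4 by 3.38 times (2.71 to 4.26) beside 10% of genes. The leukocyte-like clusters with little alveolar RNA had all 5 measured chains lower at P10 by 3.49 to 6.97 times, where 12.9% of genes were lower and 20.6% higher. In the mesenchymal-like bin with the least alveolar RNA, Col4a3 and Col4a4 stood at 32.2 and 45.6 CPM at E18.5. These were 0.696 (0.448 to 1.05) and 0.766 (0.530 to 1.08) times the background. At P10 those values were 23.2 and 46.3 CPM, 1.12 (0.652 to 1.85) and 2.03 (1.36 to 3) times the background. The ratio of P10 to E18.5 between these bins was 0.719 (0.390 to 1.30) for Col4a3 and 1.02 (0.645 to 1.60) for Col4a4.

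Mesothelial-like cells, the lining of the lung surface, were few and had a mixture of their own. At P10 (33 cells) Col4a4 was at 633 CPM (572 to 699), 27.8 times the background (21.6 to 36.0), with Col4a3 at 201 (167 to 239). At E18.5 (57 cells) Col4a4 was at 439 CPM (393 to 489) and Col4a3 at 172 (144 to 205). UMIs of Col4a4 were thus 3.15 times (2.57 to 3.88) those of Col4a3 at P10 and 2.55 times (2.07 to 3.15) at E18.5. In AT1-like cells the same ratio was 1.15 (1.05 to 1.27) and 1.44 (1.41 to 1.48). After thinning, 78.8% of the P10 cells had a Col4a4 UMI and 42.4% a Col4a3 UMI. Col4a6 was at 51.0 CPM (34.9 to 72) at P10 and Col4a5 at 153 (124 to 187), so that all 6 chains were above the background there. Col4a6 was 2.55 times higher at P10 (1.34 to 5.07), the only chain of 6 past 2 times, where 16.4% of genes were higher and 12.4% lower.

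**Figure D5:**
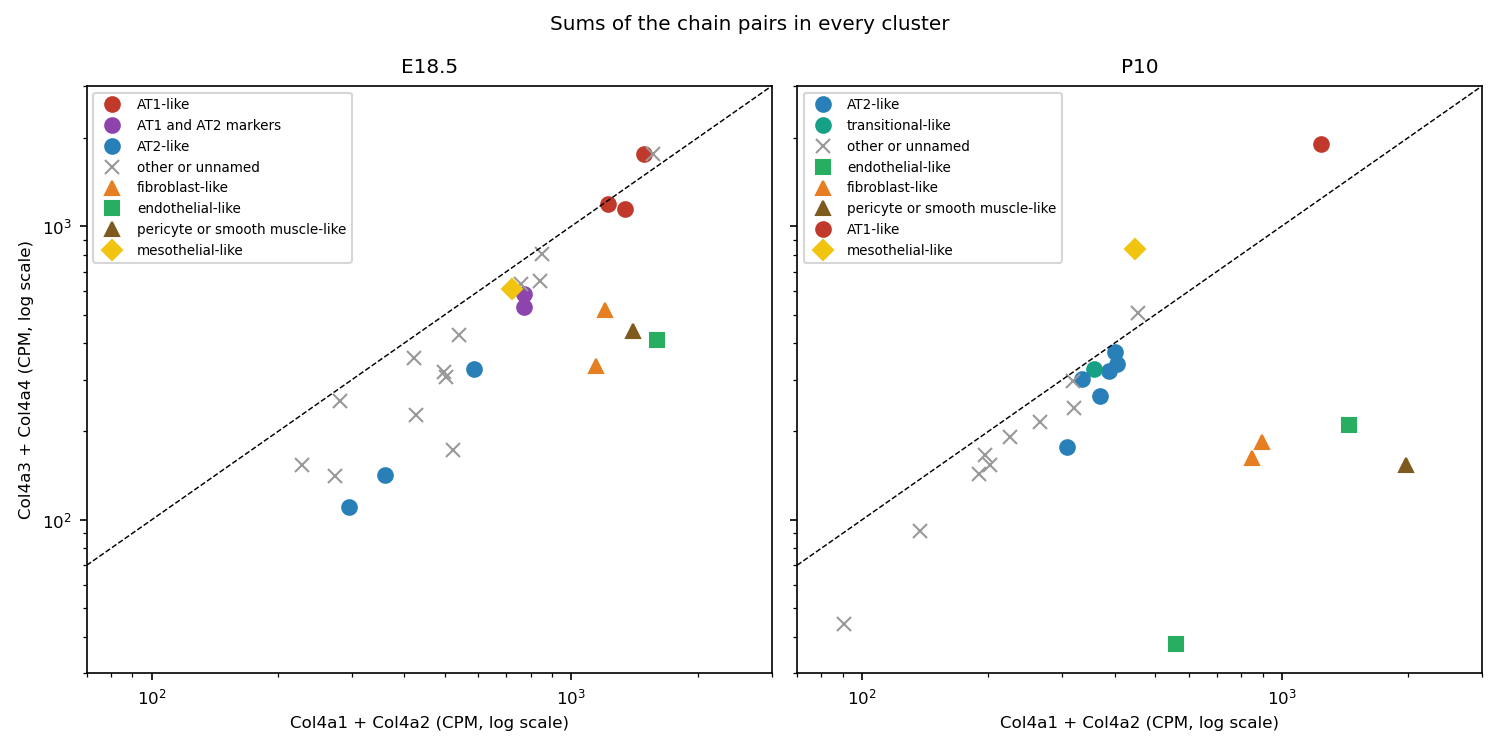
Sum of Col4a3 and Col4a4 against the sum of Col4a1 and Col4a2 (CPM, both axes logarithmic) for each cluster at E18.5 (left) and P10 (right). Colours and symbols give the class, and the dashed line marks equal sums. Endothelial-like, fibroblast-like and pericyte or smooth muscle-like clusters lie far under the line, the P10 AT1-like and mesothelial-like clusters above it. Also above it are the E18.5 AT1-like cluster with the highest chain levels, the unnamed E18.5 cluster with AT1 markers and an unnamed P10 cluster.

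The pairs also differed in their proportions between classes. Col4a3 and Col4a4 together had 1.54 times (1.42 to 1.66) the UMIs of Col4a1 and Col4a2 in AT1-like cells at P10 and 0.962 times (0.946 to 0.978) at E18.5. In AT2-like cells the ratio was 0.839 (0.827 to 0.852) at P10 and 0.441 (0.426 to 0.457) at E18.5. It was 0.144 (0.136 to 0.153) in endothelial-like and 0.0780 (0.0667 to 0.0908) in pericyte or smooth muscle-like cells of P10. Col4a1 over Col4a2 was lower at P10 in each of the named main classes. It went from 1.53 to 1.25 in AT1-like and from 1.65 to 1.15 in AT2-like cells. In endothelial-like cells it went from 2.03 to 1.49 and in mesenchymal-like cells from 2.10 to 1.67. None of these pairs of intervals overlapped, but the intervals cover counting error only. How often those of other gene pairs overlap was not counted, and a shift shared by the whole library was not tested. Over all cells of each library the ratio of Col4a1 to Col4a2 also fell, from 1.64 (1.62 to 1.66) to 1.24 (1.23 to 1.26). In the leukocyte-like cells with little alveolar RNA it went from 1.54 (1.43 to 1.66) to 1.38 (1.19 to 1.61).

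Over the 21 class sums with at least 50 cells (12 of E18.5 and 9 of P10), the genes of the first and the second head-to-head pair followed each other, and those of the third less closely. On log2(CPM + 10), Pearson's r was 0.97 between Col4a1 and Col4a2 and 0.95 between Col4a3 and Col4a4, the nearest gene of 7137 compared in each case. The 33 mesothelial-like cells of P10, with Col4a4 at 633 and Col4a3 at 201 CPM, were too few to enter. Between Col4a5 and Col4a6 it was 0.56, under the 0.77 of Col4a5 with Col4a4, the 0.64 with Col4a3 and the 0.58 with Col4a1, and between Col4a3 and Col4a6 -0.07. Next to Col4a1 and Col4a2 came Eva1b, and Igfbp7, a secreted protein of vessels, was among the nearest 5 of both. Near Col4a3 and Col4a4 was Gramd2 (r 0.88 and 0.91), and near Col4a4 also Dag1, the laminin receptor dystroglycan (0.92). Col4a5 was nearest to Nbeal1 (0.93). These are descriptions over sums that share libraries and free RNA, and no nearest genes were taken for Col4a6, which stayed under 50 CPM in all of them.

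The genes that build, link and bind type IV collagen were followed as a list of 60 in 6 groups. The list also holds proteases with their inhibitors and, for contrast, 7 anchoring and fibrillar collagens. Against AT2-like cells, AT1-like cells of E18.5 had 17 of 30 measured genes at least 2 times higher and 4 lower, and those of P10 10 of 31 higher and 0 lower. Over all genes 13.8% were higher and 8.95% lower at E18.5, and 7.59% and 1.4% at P10. Among the cross-linkers was Pxdn, peroxidasin, which makes the bonds between collagen IV hexamers: at E18.5 it stood at 139 CPM in AT1-like cells against 19.4 in AT2-like cells, and at P10 at 33.3 against 1.12. Serpinh1, the collagen chaperone, was at 217 against 87.5 CPM at E18.5 and 82.1 against 26.0 at P10. Of the biosynthesis group, which holds Serpinh1, 2 of 11 were higher at each age, with 1 lower at E18.5. Of the basement membrane partners 6 of 7 were higher in AT1-like cells at E18.5 and 3 of 8 at P10, and at E18.5 among them Agrn (agrin, 257 against 48.3 CPM) and Hspg2 (perlecan, 220 against 51.2). Of the receptors 4 of 6 were higher at E18.5 and 2 of 6 at P10. At E18.5 Ddr1, a collagen-binding kinase, was at 109 against 23.4 CPM and Itga3, a laminin-binding integrin chain, at 84.8 against 19.6.

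In endothelial-like cells 20 of 39 measured list genes were at least 2 times higher than in AT2-like cells at E18.5 and 27 of 43 at P10, and in mesenchymal-like cells 29 of 46 and 38 of 52. The mesenchymal-like counts include 4 of 5 measured contrast collagens in each library. Of that group Col1a1, Col1a2 and Col3a1 were also fibroblast markers for naming the class, so their higher level was built into the naming. Over all genes the shares were 21% and 22% for endothelial-like and 20.9% and 21.4% for mesenchymal-like cells. Nid1, nidogen, which links collagen IV to laminin, was at 94.1 CPM in endothelial-like and 141 in mesenchymal-like cells of E18.5 and at 1.35 in AT2-like cells. Itga1, a chain of the collagen-binding integrin, stood at 101 CPM in endothelial-like and 138 in mesenchymal-like cells of E18.5, and Itga2 at 45.7 in endothelial-like cells, while AT2-like cells had 5.45 and 0.476. Of the cross-linkers, Lox, a lysyl oxidase, stood at 226 CPM in mesenchymal-like and 7.39 in AT2-like cells of E18.5, and Loxl1, its relative, at 165 and 1.41 at P10.

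Between the libraries, AT2-like cells had 3 of 30 measured list genes at least 2 times higher at P10 and 9 lower, with a median log2 ratio of -0.54 against 0.20 over all genes, where 15.3% of all genes were higher and 10.4% lower. The 3 were P3h2, a collagen prolyl 3-hydroxylase (6.99 to 23.4 CPM), Itga1 (5.45 to 37.2) and Cd44, the hyaluronan receptor (32.0 to 80.6). Pxdn went from 19.4 to 1.12 CPM, Plod2, a lysyl hydroxylase, from 32.7 to 4.6 and Serpinh1 from 87.5 to 26.0. In AT1-like cells 4 of 32 were higher and 10 lower, among all genes 16.4% and 13.5%, and of the chains Col4a6 alone was at least 2 times lower, 4.55 times (1.76 to 16.8) with 4 UMIs at P10. Between the AT1-like cells with the least AT2 marker RNA, of which P10 had 17, the ratio of P10 to E18.5 was 1.98 to 3.8 for Col4a1 to Col4a5. For Col4a6 it was 1.28 (0.153 to 4.75), on 2 UMIs at P10. In mesenchymal-like cells 11 of 52 were higher and 5 lower, where 15.3% and 8.9% of all genes were, so that the lower count is near the share over all genes. Loxl2 there went from 23.4 to 93.4 CPM and P3h2 from 15.7 to 72.1. In endothelial-like cells 8 of 45 were higher, where 13.9% of genes were, and 7 lower, where 8.16% were. Hspg2 went from 163 to 32.2 CPM and Itga1 from 101 to 385.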

How the data were processed

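Both libraries were deposited by the authors as matrices of raw UMI counts. Cell Ranger 7.0.1 wrote them, per the file headers, and the submitters' processing notes give mm10 as the build and list Seurat 4.0.0 without a role. The labels name a 3' v2 kit. The sources used here do not say if reads in introns were included, which bears on genes as long as these. The P10 sample is labelled as embryonic tissue, and groups were taken from the time point. The matrices hold no reporter or recombinase transcript.

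Cells had at least 500 genes, 1000 UMIs and at most 20% mitochondrial UMIs (712 and 417 barcodes left out). Counts scaled to 10000 per cell were clustered in each library (scanpy 1.11.5, leidenalg 0.10.2, Python 3.11.15, 2000 variable genes without the chains, 30 components, 15 neighbours, Leiden resolution 1), giving 26 and 24 clusters. Scrublet marked 2 and 1 cells, too few to be relied on, and no doublets were removed. Its scores served only to rank cells in an alternative. Classes were named from marker lists of 14 classes. A marker was raised when detected in 25% of a cluster's cells and 3 times over the 10th percentile of clusters. A name needed 3 raised markers and 35% of a list (60% for erythroid), or for AT1 and AT2 a marker level of 0.5, and both alveolar names were given from 0.2 of the other. This naming rule and the bins by marker share were set after the clusters were seen. Members and lists were chosen with earlier results of these data known.

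Class sums are in CPM (exact Poisson intervals). Ratios have conditional binomial intervals (scipy 1.17.1), and no p-value was computed, since each time point has 1 library. On simulated counts for the P10 against E18.5 comparison of AT2-like cells (7515 genes, 200 of them changed), 94.7% of intervals held the true ratio. Those counts were drawn with the counting error that the intervals assume, so this checks the calculation alone. Variation between cells, mice or libraries was not simulated. Shares of cells were compared after thinning to 3000 UMIs, leaving out 1332 and 823 shallower cells. Text names all chains, list genes at a ratio of at least 2 or needed for their role, and some of the 5 genes most alike over classes for each chain but Col4a6, which was too low. Alternatives were 2 other clusterings, stricter cells, per-cell means, centring on all genes, cells with little RNA of other classes, no high Scrublet scores, cells by Xist or Y-linked UMIs, 2 other CPM minimums, genes of like length and 2 naming choices.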

Additional observations from a re-analysis of the deposited data

Results flagged for a closer look

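Col4a3 went in opposite directions between the time points in 2 classes, which is why it is listed: set as log2 of P10 over E18.5, it was at 1.23 in AT2-like and -1.01 in mesenchymal-like cells. Col4a6 did so as well, with -2.19 in AT1-like cells, on 4 UMIs at P10, and 2.17 in mesenchymal-like cells. Neither difference between classes was tested, since each time point has 1 library. In the mesenchymal-like cells with the least alveolar marker RNA, the ratio of Col4a3 was 0.719 (0.390 to 1.30) and that of Col4a6 12.2 (5.93 to 29.0). In the AT1-like cells with the least AT2 marker RNA the ratio of Col4a6 was 1.28 (0.153 to 4.75), on 2 UMIs at P10. That interval also holds the ratio of the whole AT1-like class, 0.22, so these cells cannot show a direction.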

How the results depend on the processing

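Each count was repeated under up to 14 other settings, 2 of them added after the data were seen. Of 31 chain ratios of at least 2, 26 kept their direction and 20 stayed at least 2 in every setting that gave a value, and 206 of 250 counts stayed within 1.5 times. All chain ratios of AT1-like over AT2-like cells that were counted stayed at least 2. In cells with little RNA of other classes, 4 of the ratios over AT2-like cells at E18.5 that had been at least 2 changed direction: the log2 ratios of Col4a3 and Col4a4 became -0.40 and -0.61 in endothelial-like and -0.67 and -0.66 in mesenchymal-like cells. Col4a5, which had been under 2 times, turned as well, from 0.70 to -1.38 in endothelial-like and from 0.89 to -0.011 in mesenchymal-like cells. The cause was not tested. At Leiden resolution 0.5 the log2 ratio over time of Col4a4 in mesenchymal-like cells became 0.027.

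The following counts moved. Chains higher in endothelial-like than in AT2-like cells at E18.5 (4) became 2 at resolution 2, with stricter cells, when centred on all genes, in cells with little other RNA (with 1 lower), without high Scrublet scores, in cells with Y-linked UMIs and with mixed clusters from 0.25. Those higher in mesenchymal-like cells at E18.5 (4) became 2 at resolution 2, with stricter cells, per-cell means, centring, little other RNA and mixed clusters from 0.25. Chains lower at P10 (0) became 3 in endothelial-like cells with per-cell means, little other RNA and Y-linked UMIs, and 2 in mesenchymal-like cells with per-cell means, centring, little other RNA, no high Scrublet scores and Xist UMIs. Over time, chains higher in AT2-like cells (1) became 0 at resolution 2, with stricter cells, Y-linked UMIs, genes of the same length and mixed clusters from 0.25, and 2 with per-cell means. Chains lower (0) became 1 with no CPM minimum, genes of the same length and mixed clusters from 0.25. Chains lower in endothelial-like cells over time (2) became 0 with little other RNA. In mesenchymal-like cells those lower (2) became 0 at resolution 0.5, with little other RNA and without high Scrublet scores, and 1 with stricter cells, per-cell means and Y-linked UMIs, and those higher (1) became 2 with little other RNA and 0 at a minimum of 50 CPM. List genes higher in AT2-like cells over time (3) became 1 at 50 CPM and against genes of the same length and 6 with no minimum, and those lower (9) became 4 at 50 CPM. No paired analysis was possible because there is 1 library per time point. Genes of the same length were used only for comparisons over time. The depth of 67 AT1-like cells at P10 limits Col4a6 there.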
